A study of Mus musculus with 21 samples.

Results

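The guanylate-binding proteins and immunity-related GTPases described here are 10 genes, Gbp2, Gbp3, Gbp4, Gbp5, Gbp6, Gbp7, Iigp1, Irgm1, Irgm2 and Igtp, taken by symbol from the 24623 genes of the expression table. They were selected on their higher TPM in EPHA2-KO than in WT tumour cells, so that contrast is given below as a description and without a test. All 10 were among the 14337 genes that passed the filter on low values.

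RNA sequencing covered 2 mouse pancreatic tumour cell clones, 6694c2 and 6419c5, sorted from subcutaneous implants after 3 weeks of growth in C57BL/6 mice. Each clone contributed libraries of 2 EPHA2-KO lines, KOB and KOA, and of its parental line, called WT here, with 4 libraries of each line for 6694c2 and 3 of each for 6419c5. EPHA2 is a receptor tyrosine kinase, and the labels do not say how its gene was edited. The table letters the KO lines while the sample titles number them, and nothing ties a letter to a number. No treatment was recorded for any group, and all groups shared the host strain and the implantation site. As each clone has a single WT line and a pair of KO lines, a difference between KO and WT cannot be told apart from other differences between these lines. Whether replicate libraries represent different mice is not given in the labels, so p-values measure the spread between libraries only.

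Guanylate-binding proteins are large GTPases, made by many cell types after exposure to interferon gamma, that assemble on membranes of intracellular pathogens and of the vacuoles around them. Immunity-related GTPases are a smaller class of the same response. In mice the regulatory members Irgm1, Irgm2 and Igtp (also called Irgm3) sit on the cell's own membranes and keep effector members such as Iigp1 (also called Irga6) in their inactive, GDP-bound form. Promoters of genes that respond to interferon gamma often carry gamma-activated sites and interferon-stimulated response elements (ISRE), and Irf1 and related factors bind the ISRE.

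On the mouse build GRCm38.p6 of the RefSeq gene table, Gbp5, Gbp7, Gbp3 and Gbp2 lie in that order on chromosome 3. Gbp2b lies between Gbp3 and Gbp2. Gbp4 and Gbp6 lie on chromosome 5, and Irgm1, Igtp and Irgm2 on chromosome 11. RefSeq promoter windows, from 250 bases before to 50 bases after a gene start, were found for 7 of the 10 genes (Gbp2, Gbp3, Gbp5, Gbp7, Irgm1, Irgm2 and Igtp). Both strands were searched for the gamma-activated site, TTCNNNGAA, which reads the same on either strand, and for the ISRE core, which is GAAA, then NN, then GAAA again, where N is any base. The 250 bases before the start are shown for 5 genes: Gbp2, which had the highest level of the 10 genes in KO lines, Gbp5 and Irgm1, to which the tested differences below belong, and Irgm2 and Igtp, whose windows carry both motifs side by side. Each sequence runs from 5′ to 3′ along the gene's strand, and capitals mark the matches to either motif. The windows were chr3:142620413-142620662, chr3:142496684-142496933, chr11:58214727-58214976 and chr11:58199306-58199555 on the plus strand and chr11:48871421-48871670 on the minus strand.
Gbp2: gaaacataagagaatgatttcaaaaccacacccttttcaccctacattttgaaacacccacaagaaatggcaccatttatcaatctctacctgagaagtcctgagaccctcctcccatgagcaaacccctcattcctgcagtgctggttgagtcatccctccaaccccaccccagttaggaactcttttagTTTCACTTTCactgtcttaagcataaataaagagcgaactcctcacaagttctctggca
Gbp5: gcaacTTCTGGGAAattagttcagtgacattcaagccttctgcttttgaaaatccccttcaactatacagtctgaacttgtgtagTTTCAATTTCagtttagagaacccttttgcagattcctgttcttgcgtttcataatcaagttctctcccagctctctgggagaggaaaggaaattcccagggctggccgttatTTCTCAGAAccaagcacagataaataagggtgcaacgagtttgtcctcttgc
Irgm1: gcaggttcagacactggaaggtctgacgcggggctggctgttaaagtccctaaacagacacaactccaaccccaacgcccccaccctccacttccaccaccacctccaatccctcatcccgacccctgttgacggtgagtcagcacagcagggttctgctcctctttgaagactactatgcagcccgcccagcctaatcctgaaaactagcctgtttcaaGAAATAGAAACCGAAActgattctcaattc
Irgm2: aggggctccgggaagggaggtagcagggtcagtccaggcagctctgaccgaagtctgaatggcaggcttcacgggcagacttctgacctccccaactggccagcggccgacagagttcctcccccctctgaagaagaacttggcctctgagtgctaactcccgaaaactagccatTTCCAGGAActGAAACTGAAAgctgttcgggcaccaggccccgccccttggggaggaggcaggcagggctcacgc
Igtp: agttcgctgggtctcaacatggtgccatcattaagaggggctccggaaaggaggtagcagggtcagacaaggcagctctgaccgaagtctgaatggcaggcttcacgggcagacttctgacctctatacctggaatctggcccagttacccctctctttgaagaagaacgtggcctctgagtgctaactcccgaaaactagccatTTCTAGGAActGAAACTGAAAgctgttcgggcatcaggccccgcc

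The ISRE core occurred in a window of all 7 genes, against 3.44% of all 32851 promoter windows in the table. The gamma-activated site occurred in 4 of them, Gbp5, Gbp7, Irgm2 and Igtp, against 8.3% of all windows, and 0.454% of all windows held both. In Gbp2 the single ISRE core began 59 bases before the start and lay on the opposite strand. Gbp3 had a pair of overlapping cores 45 and 39 bases before the first of its 2 annotated starts, and none at the second start. Irgm1, which had no gamma-activated site in its window, likewise had overlapping cores, 30 and 24 bases before its start. In Irgm2 and Igtp the gamma-activated site was followed, after 2 bases, by a repeat of GAAA. The combined string of TTCNNNGAA, NN and the ISRE core, chosen after these sequences were seen, occurred in 5 of the 32851 windows (0.0152%). Those 5 belonged to Igtp, Irgm2, Tgtp1, Tgtp2 and Gm12185, all on chromosome 11. Igtp and Irgm2 are neighbours, and their windows share an unbroken run of 61 bases, so their matches are not independent of each other. For Gbp7, Irgm2, Tgtp2 and the second start of Gbp3, bases just after the start were not found in GENCODE M21 transcripts of the gene. Distances from those starts rest on the RefSeq annotation alone. The matches describe letters in these windows, and no binding was measured.

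**Figure D1:**
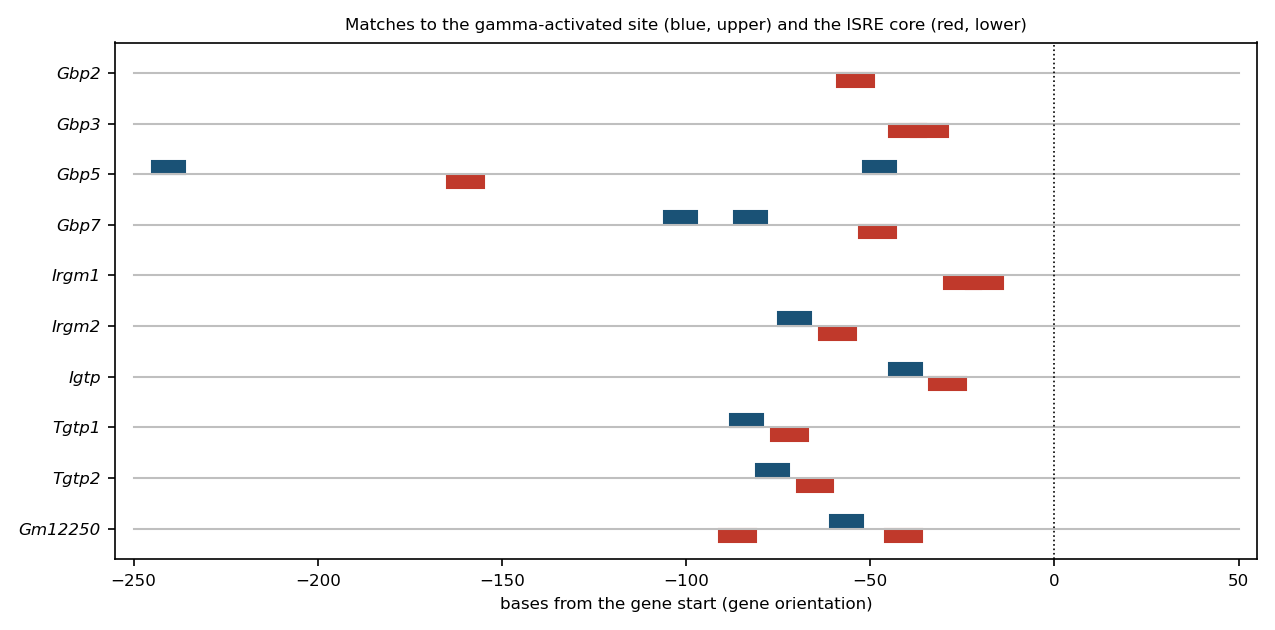
Matches to the gamma-activated site (blue, above each line) and the ISRE core (red, below it) in RefSeq promoter windows of 7 of the 10 genes and of Tgtp1, Tgtp2 and Gm12250; the x axis gives bases from the gene start in the direction of the gene. All 7 genes have a red box, and in Irgm2 and Igtp a blue box lies next to it. For Gbp7, Irgm2, Tgtp2 and Gm12250 the start rests on the RefSeq annotation alone.

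Levels were given as TPM, which are scaled by transcript length and add up to the same total in every library, so genes can be compared with one another. The number of reads behind a value is unknown, and no counting interval can be given. Epha2 itself averaged 97.8 ± 11.4 TPM in KOB and 115 ± 18.3 TPM in KOA of 6694c2, against 245 ± 5.11 TPM in WT (SD, n = 4 each). In 6419c5 it averaged 197 ± 25.7 TPM in KOB and 151 ± 6.05 TPM in KOA, against 176 ± 13.5 TPM in WT (SD, n = 3 each), so the KOB line labelled KO was not below WT in transcript level. A transcript level does not measure the protein or the edit, and every KO direction given for 6419c5 rests on the labels. A single microRNA symbol, Mir6236, took 14.5% of all TPM in 6694c2 KOB library 4 and also stood high in 6419c5 WT library 3. Summed TPM of 8 epithelial markers lay between 5607 and 15055 in the libraries. Those of 11 macrophage markers spread widely, between 35.2 TPM in 6694c2 KOB and 2968 TPM in library 2 of 6419c5 KOA.

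In both clones every library of the lines labelled KO held more of each of the 10 transcripts than any WT library. Summed over the 10 genes, 6694c2 had 495 to 739 TPM in KOB libraries and 355 to 506 TPM in KOA libraries, against 42.3 to 71.3 TPM in WT libraries. In 6419c5 the sums were 409, 2292 and 713 TPM in KOB, 484, 536 and 477 TPM in KOA, and 51.8, 74.7 and 72.0 TPM in WT. The groups labelled KO and WT did not overlap in either clone, and library 2 of 6419c5 KOB stood far above all others. The 6 guanylate-binding proteins together averaged 317 ± 51.0 TPM in KOB and 218 ± 45.8 TPM in KOA of 6694c2, against 25.2 ± 6.40 TPM in WT (SD, n = 4 each). The 4 immunity-related GTPases averaged 293 ± 51.2 TPM in KOB and 199.5 ± 21.03 TPM in KOA, against 28.4 ± 6.73 TPM in WT. In 6419c5 the guanylate-binding proteins averaged 663 ± 600.4 TPM in KOB and 298 ± 27.4 TPM in KOA, against 25.7 ± 9.97 TPM in WT, and the immunity-related GTPases 476 ± 410.4 TPM in KOB and 201 ± 14.4 TPM in KOA, against 40.5 ± 3.36 TPM in WT (SD, n = 3 each). Without library 2 the KOB means were 319.8 and 241 TPM. Gbp2 had the highest mean level of the 10 genes in 5 of the 6 lines, while Irgm1 was second in WT of 6694c2 and first in WT of 6419c5 but ranked 4 in KOB and KOA of 6694c2, and 4 in KOB and 2 in KOA of 6419c5.

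Gbp2, a lipid-anchored guanylate-binding protein that coats pathogen vacuoles, gave the highest levels. In 6694c2 it had 214, 148, 169 and 178 TPM in KOB, 161, 99.3, 119 and 114 TPM in KOA, and 11.2, 14.6, 12.9996 and 21.7 TPM in WT. In 6419c5 it had 133, 773 and 243 TPM in KOB, 168, 173 and 146 TPM in KOA, and 7.18, 12.2 and 15.7 TPM in WT. All KO libraries lay above all WT libraries, KOB and KOA overlapped in both clones, and KOB library 2 of 6419c5 was the highest of the 21 libraries. Mean TPM was 11.7 times that of WT in KOB and 8.16 times in KOA of 6694c2, and 32.8 and 13.9 times in KOB and KOA of 6419c5. Without KOB library 2 the 6419c5 KOB mean was 16.1 times that of WT.

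Gbp4, encoded in the cluster on chromosome 5, was the member with the lowest WT level in both clones and the largest ratio. It had 33.7, 23.5, 22.8 and 25.8 TPM in KOB of 6694c2, 18.5, 9.63, 15.4 and 13.5 TPM in KOA, and 0.368, 0.676, 0.544 and 0.946 TPM in WT. In 6419c5 it had 16.7, 119.5 and 30.0 TPM in KOB, 29.1, 30.3 and 21.3 TPM in KOA, and 0.394, 1.15 and 1.14 TPM in WT. The lowest KO library was 10.2 times the highest WT library in 6694c2 and 14.5 times in 6419c5, the widest such gaps of the 10 genes. Mean TPM was 41.7 times that of WT in KOB and 22.5 times in KOA of 6694c2, and 61.9 and 30.1 times in KOB and KOA of 6419c5. Without KOB library 2 the 6419c5 KOB mean was 26.1 times that of WT, below KOA. These ratios stand over WT means of 0.633 and 0.894 TPM in 6694c2 and 6419c5, levels at which a small absolute change moves a ratio a long way.

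Gbp5, a lipid-anchored member known in mice for promoting activation of the NLRP3 inflammasome, was likewise close to the floor in WT. Its levels in 6694c2 were 25.0, 18.5, 17.4 and 18.6 TPM in KOB, 13.3, 7.58, 10.5 and 8.46 TPM in KOA, and 0.598, 1.30, 0.620 and 0.719 TPM in WT. In 6419c5 they were 10.7, 69.7 and 16.1 TPM in KOB, 13.6, 17.3 and 11.7 TPM in KOA, and 0.546, 1.61 and 1.92 TPM in WT. In 6694c2 every KOB library lay above every KOA library, while in 6419c5 the KOB and KOA libraries overlapped.

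Gbp3 and Gbp7, from the cluster on chromosome 3, and Gbp6, from chromosome 5, ran at intermediate levels. Gbp3 ranged over 30.5 to 47.1 TPM in KOB and 22.3 to 37.6 TPM in KOA of 6694c2, against 2.83 to 4.07 TPM in WT. In 6419c5 Gbp3 had 32.8, 187 and 57.7 TPM in KOB and 38.2, 45.7 and 39.0 TPM in KOA, against 2.13, 4.80 and 4.08 TPM in WT. Gbp7 had the narrowest gap in 6694c2, its lowest KO library at 11.2 TPM and its highest WT library at 3.69 TPM, a ratio of 3.02. Gbp6 ranged over 24.7 to 37.3 TPM in KOB and 14.5 to 25.3 TPM in KOA of 6694c2, against 1.34 to 2.74 TPM in WT. In 6419c5 Gbp6 had 23.1, 128.5 and 34.5 TPM in KOB and 30.3, 32.9 and 32.1 TPM in KOA, against 2.19, 5.44 and 4.13 TPM in WT. Gbp7 had 16.2, 70.9 and 26.3 TPM in KOB and 20.6, 25.5 and 19.8 TPM in KOA, against 1.77, 5.35 and 5.35 TPM in WT. Library 2 was the highest KOB library for all 3 genes, and without it the KOB mean was 45.2 TPM for Gbp3, above KOA, and 28.8 TPM for Gbp6 and 21.2 TPM for Gbp7, both below KOA. Of the 31-base words in Gbp6 transcripts of the GENCODE M21 annotation, 74.2% also occur in transcripts of other genes, mostly Gm43302, so the split of reads between them, and with it the level of Gbp6, is uncertain. The shared portion was 15.9% for Igtp, 14.7% for Gbp7, 14.3% for Gbp4, 10.7% for Irgm2 and under 7% for the other genes.

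Iigp1, an effector GTPase that loads onto parasite-containing vacuoles in mouse cells, had 152, 91.9, 122 and 142 TPM in KOB of 6694c2, 80.7, 65.8, 73.8 and 67.9 TPM in KOA, and 2.298, 6.21, 4.32 and 8.76 TPM in WT. In 6419c5 it had 56.5, 411 and 123 TPM in KOB, 53.4, 62.0 and 64.4 TPM in KOA, and 2.26, 5.42 and 8.46 TPM in WT. KO and WT libraries were widely separated, and the WT lines of the clones had nearly the same mean, 5.398 ± 2.75 TPM in 6694c2 (SD, n = 4) and 5.38 ± 3.10 TPM in 6419c5 (SD, n = 3).

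Among the regulatory members, Irgm1, which in mice is needed for resistance to mycobacteria, had the highest WT level in 6419c5 and the smallest ratios of KO to WT in both clones. It had 79.6, 51.3, 63.5 and 63.8 TPM in KOB of 6694c2, 50.5, 45.1, 47.1 and 45.1 TPM in KOA, and 12.2, 12.2, 10.1 and 13.99 TPM in WT. In 6419c5 it had 49.8, 175 and 69.7 TPM in KOB, 55.7, 63.6 and 68.0 TPM in KOA, and 23.6, 24.8 and 19.7 TPM in WT. The lowest library labelled KO in 6419c5 was 2.01 times the highest WT library, the narrowest gap of the 10 genes. Igtp, a regulatory member found on the endoplasmic reticulum, had 91.3, 63.6, 80.6 and 69.2 TPM in KOB of 6694c2, 77.7, 62.2, 54.4 and 54.3 TPM in KOA, and 5.96, 7.72, 5.79 and 10.3 TPM in WT. In 6419c5 it had 52.6, 294 and 87.1 TPM in KOB, 52.7, 61.6 and 55.2 TPM in KOA, and 7.71, 8.57 and 6.91 TPM in WT. Igtp was well separated between KO and WT libraries in both clones, and KOB and KOA overlapped. Irgm2, which sits next to Igtp in the genome and is associated with the Golgi, ranged over 21.9 to 30.6 TPM in KOB and 16.4 to 21.5 TPM in KOA of 6694c2, against 2.58 to 4.52 TPM in WT, and 18.6 to 63.3 TPM in KOB and 19.6 to 24.3 TPM in KOA of 6419c5, against 3.99 to 5.34 TPM in WT.

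**Figure D2:**
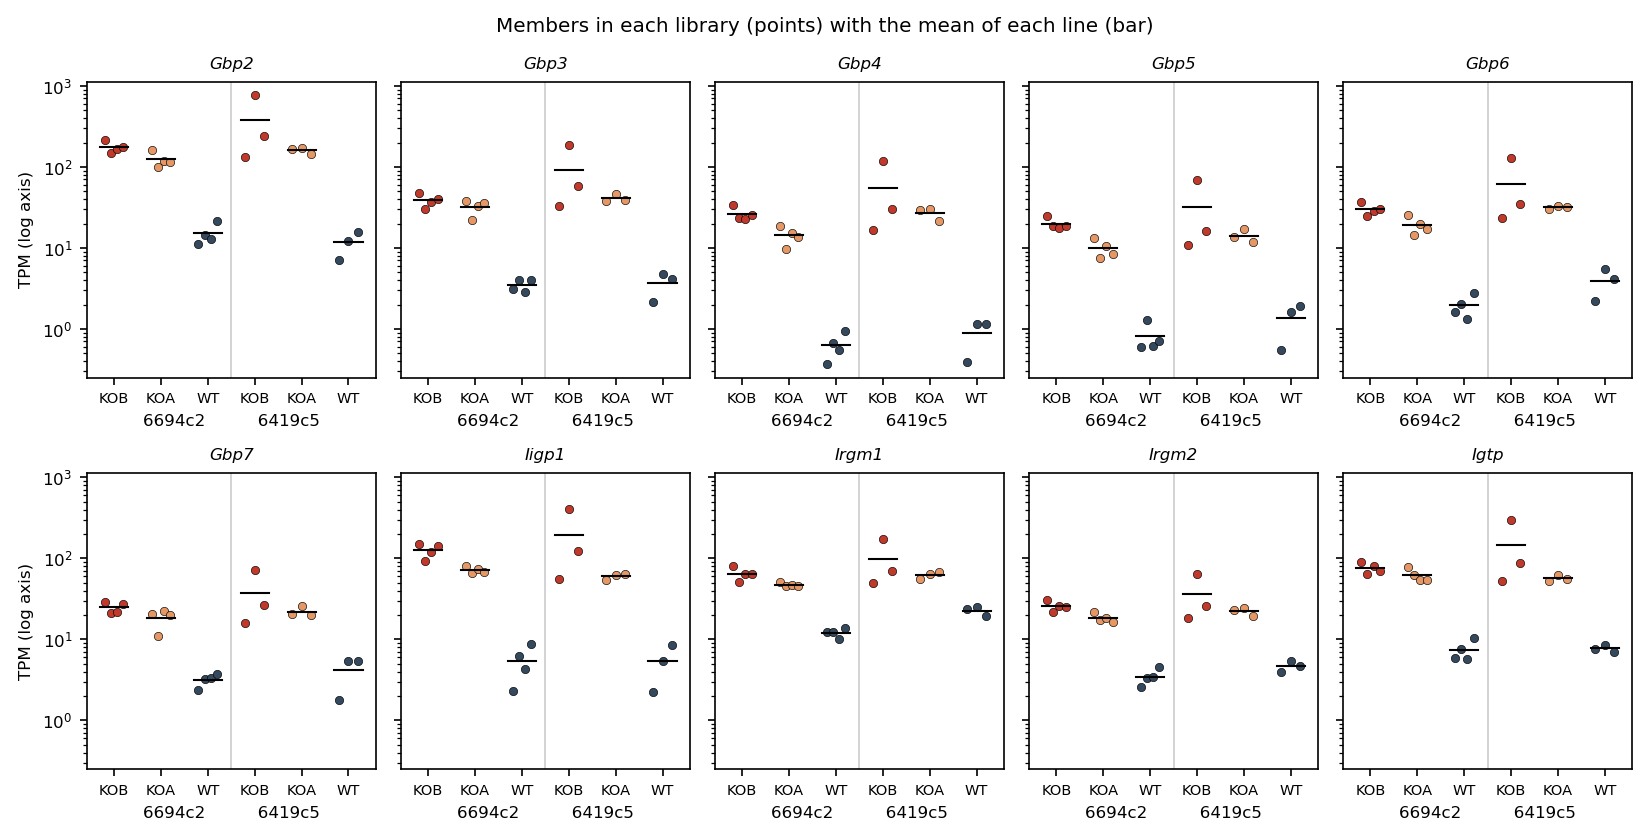
TPM of the 10 genes in each of the 21 libraries (points, log axis) with the mean of each line (bar), by clone and line. All points of the lines labelled KO lie above all WT points of the same clone, and the highest point in every panel is library 2 of 6419c5 KOB.

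On the scale of log2(TPM + 1), which understates the change of genes with low levels, the mean of KOB and KOA less WT was 2.09 ± 0.21 (SE from the limma fit) for Irgm1 to 4.01 ± 0.38 for Iigp1 in 6694c2, with a median of 3.06 over the 10 genes and 0.07 over all genes tested. In 6419c5 the difference between lines labelled KO and WT was 1.64 ± 0.25 for Irgm1 to 4.17 ± 0.38 for Gbp4, with a median of 3.14 against 0.08 over all genes. All KO libraries were above all WT libraries for 9.4% of all genes in 6694c2 and 17.8% in 6419c5, as they were for the 10 genes, which were chosen for this contrast, so nothing is read from it.

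The same contrast was fitted for other genes of the response. Across all genes tested, an adjusted p of 0.05 (limma) was passed with higher levels in KO by 23.9% in 6694c2 and 26.5% in 6419c5, and with lower levels by 13.5% and 15%. Such calls take libraries, not lines, as replicates. With lines as a random effect, 0.907% of all genes passed in either direction in 6694c2 and 4.11% in 6419c5. The gene lists were not counted under that setting. Of 23 further dynamin-like and immunity-related GTPases, 21 were tested, and 18 were higher in KO than in WT in 6694c2 and 15 in 6419c5, with none lower. Their median difference was 1.21 in 6694c2 and 1.58 in 6419c5. Tgtp2, an effector immunity-related GTPase, differed by 3.72 ± 0.29 and 4.15 ± 0.33 in 6694c2 and 6419c5, Gm12250 (Irgb10) by 3.05 ± 0.35 and 2.64 ± 0.41, and Gbp9 by 2.53 ± 0.19 and 2.298 ± 0.22. Atl3, an atlastin of the same GTPase superfamily that shapes the endoplasmic reticulum, differed by 0.15 ± 0.10 and 0.14 ± 0.12 and did not pass in either clone. Gbp2b, a neighbour of Gbp2, stayed under 0.475 TPM in all libraries and was not tested.

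Of 22 genes of interferon signalling, 20 were tested, and 14 were higher and 2 lower in KO than in WT in 6694c2, and 14 higher and 1 lower in 6419c5. Irf1, a transcription factor of the response, differed by 1.55 ± 0.17 in 6694c2 and 1.40 ± 0.19 in 6419c5. The interferon gamma receptor chains differed less, Ifngr1 by 0.35 ± 0.09 and 0.49 ± 0.10, and Ifngr2 by 0.35 ± 0.08 and 0.71 ± 0.09. Ptpn2, a phosphatase that dampens cytokine signalling, was among the lower genes, at -0.33 ± 0.07 and -0.43 ± 0.08. Ifng itself was listed above 0 in 9 of 14 libraries of the lines labelled KO, at no more than 0.389 TPM, and at 0 in all 7 WT libraries. Of 31 partners in autophagy conjugation, vacuole recognition, inflammasomes and prenylation, 30 were tested. Of these, 10 were higher and 6 lower in 6694c2, and 11 higher and 5 lower in 6419c5, with medians of -0.02 and 0.12, where 23.9% and 26.5% of all genes were higher and 13.5% and 15% lower. Casp1, the inflammasome protease, differed by 3.26 ± 0.22 and 1.64 ± 0.26, and Gsdmd, the pore-forming protein that it cleaves, by 0.63 ± 0.07 and 0.70 ± 0.08.

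Leukocytes make these GTPases too. The labels call the cells sorted tumour cells and name no gate, and in such bulk samples fewer cells of a type and less RNA per cell cannot be told apart. None of 11 macrophage markers passed the test between KO and WT in either clone, where 37.4% of all genes passed in 6694c2 and 41.4% in 6419c5, and their median difference was -0.43 in 6694c2 and -1.73 in 6419c5. For KOB alone less WT the median was -1.28 in 6694c2, with 1 marker passing as lower, and -2.36 in 6419c5, with 4. For KOA alone less WT it was 0.31 and -1.09, and none passed. Over all genes tested these 4 medians lay between 0.04 and 0.10. Summed macrophage markers ran from 35.2 to 682 TPM in KO and from 113 to 841 TPM in WT libraries of 6694c2. In 6419c5 they ran from 131 to 2968 TPM in libraries labelled KO and from 428 to 1402 TPM in WT. In KOA library 2 of 6419c5, which held the 2968 TPM, the 10 GTPases summed to 536 TPM, near the 484 and 477 TPM of the other KOA libraries. Summed T and NK cell markers, 11 in the table and 2 of them tested, ran from 5.65 to 13.9 TPM in KO and from 3.17 to 3.78 TPM in WT libraries of 6694c2, without overlap. In 6419c5 they ran from 3.13 to 8.98 TPM in libraries labelled KO and from 3.91 to 4.39 TPM in WT, and overlapped. Of the 2 tested, 1 passed as higher in KO in 6694c2, where 23.9% of all genes did, and none passed in 6419c5. Cd3e, a defining T cell gene, averaged 0.245 TPM in KOB and 0.283 TPM in KOA against 0.0176 TPM in WT of 6694c2. Epithelial markers summed to 11401 to 15055 TPM in libraries labelled KO and 5607 to 7262 TPM in WT libraries of 6419c5, without overlap, while in 6694c2 they overlapped. The part of these cell types in the GTPase levels was not tested.

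The difference between the KO lines of a clone does not involve the WT libraries and was tested. In 6694c2 all 10 genes averaged higher in KOB than in KOA, by 0.27 ± 0.35 (Gbp3) to 0.95 ± 0.38 (Gbp5) on the log2(TPM + 1) scale, with a median of 0.50 against -0.01 over all genes. Only Gbp5 passed (limma, two-sided, adjusted p = 0.0467), where 46.5% of all genes passed and 23.6% did so in this direction, so the share of the 10 genes lay below that of all genes. Gbp4 was next, at 0.87 ± 0.38 (limma adjusted p = 0.0719). Every KOB library lay above every KOA library for 5 of the 10 genes, Gbp4, Gbp5, Iigp1, Irgm1 and Irgm2, and for 19.1% of all genes. The Gbp5 call held in 11 of 29 alternative settings, with adjusted p between 0.000959 and 0.117 and a difference between 0.84 and 1.08. Without library 2 of 6419c5 KOB, which enters through the shared estimate of the spread, 5 genes passed (Gbp4, Gbp5, Gbp6, Irgm1 and Irgm2), where 46.4% of all genes did, and with 6694c2 fitted alone 7 passed, where 48.1% of all genes did. Marker sums of other cells moved with these lines without overlap, at 47.5 to 90.5 TPM in KOB and 157 to 628 TPM in KOA for fibroblasts, and 1.14 to 2.31 TPM in KOB and 4.63 to 18.1 TPM in KOA for endothelium. Dendritic markers had 1.91 to 2.69 TPM in KOB and 2.98 to 6.56 TPM in KOA, and 4 general leukocyte markers 13.9 to 26.5 TPM in KOB and 31.1 to 75.4 TPM in KOA. Macrophage markers overlapped, at 35.2 to 257 TPM in KOB and 104 to 682 TPM in KOA, and the part of all these cells in the result was not tested.

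In 6419c5 the KOB mean was also above the KOA mean for all 10 genes, by 0.44 ± 0.28 (Irgm1) to 1.24 ± 0.51 (Iigp1), but none passed (limma adjusted p from 0.0939 for Igtp upwards), where 17.4% of all genes did and 12.7% were higher in KOB. At an unadjusted p under 0.05 there were 2, Iigp1 and Igtp. The interval for Igtp was 0.16 to 1.77 and that for Iigp1 was 0.16 to 2.31 before adjustment. The KOB libraries overlapped KOA for all 10 genes, while 23.2% of all genes had every KOB library above every KOA library. Summed fibroblast markers ran from 1389.8 to 2023 TPM in KOB and from 525 to 676 TPM in KOA, and endothelial markers from 7.85 to 14.3 TPM in KOB and from 5.12 to 7.17 TPM in KOA, and their part was not tested. These differences rested on 1 library. Without KOB library 2 they ran from -0.24 (Gbp4) to 0.47 (Iigp1), with 4 genes higher and 6 lower, and none passed. Without KOB library 1, the lowest of the line, 6 passed (Gbp2, Gbp3, Iigp1, Irgm1, Irgm2 and Igtp), where 15.2% of all genes did, with Iigp1 at 1.90 (limma adjusted p = 0.0114) and Igtp at 1.49 (limma adjusted p = 0.00645).

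**Figure D3:**
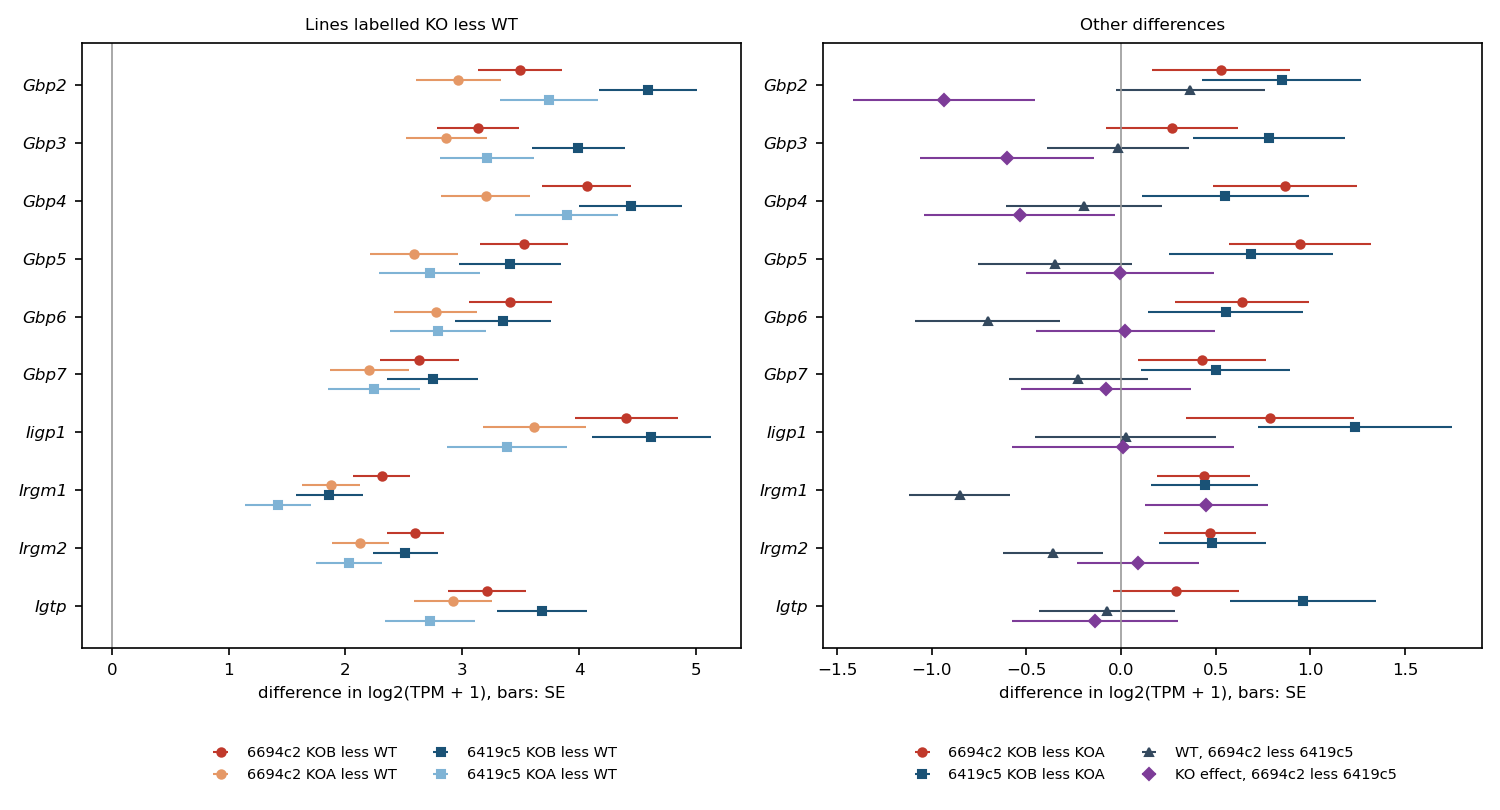
Differences in log2(TPM + 1) with SE for the 10 genes: left, each line labelled KO less WT of its clone; right, KOB less KOA in each clone, WT of 6694c2 less WT of 6419c5, and the KO effect of 6694c2 less that of 6419c5. All values on the left are above 1, and on the right the tested differences that passed are Gbp5 for KOB less KOA in 6694c2 and Irgm1 for WT.

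Library 2 of 6419c5 KOB had the highest level of all 21 libraries for each of the 10 genes. Set against the median of the other 5 libraries labelled KO of its clone, it held 2.76 times as much Irgm1, 4.61 times as much Gbp2 and 6.63 times as much Iigp1, the ends of the range being Irgm1 and Iigp1. All 10 genes were at least 2-fold above that median on the scale of TPM + 1, as were 459 of the 14337 genes (3.2%). The library also stood high for some further genes of the response, but not for all of them. Gm12250 had 58.4 TPM there against a median of 9.24 TPM, Irf1 252 against 116 TPM, Nlrc5, the activator of MHC class I genes, 45.9 against 11.8 TPM, and Socs1, the feedback inhibitor of Jak kinases, 164 against 28.5 TPM. Gbp10, one of the chromosome 5 cluster, had 22.2 against 1.54 TPM. For Socs1 the highest of the other libraries labelled KO had 88.2 TPM. Other genes of the GTPase and interferon signalling lists lay near or below their medians. Among them were Jak1 at 46.2 against 51.2 TPM, Atl3 at 32.2 against 44.0 TPM and Irgq at 16.6 against 15.6 TPM. Of the leukocyte markers, Ptprc, the pan-leukocyte gene, had 1.59 TPM in this library against a median of 1.40 TPM, and Csf1r had 8.49 against 6.01 TPM. Cd53, Coro1a, Cd68, Mrc1 and Cd163 lay below their medians, and the rest of the general leukocyte and macrophage markers above them. The 11 macrophage markers summed to 217 TPM, within the range of the other libraries labelled KO. Several T and NK cell markers stood above the median by ratios like those of the GTPases, all at low levels. Nkg7 had 0.754 against 0.146 TPM, Cd3e 0.578 against 0.128 TPM, Cd8b1 0.460 against 0.119 TPM and Cd3g 0.773 against 0.257 TPM. Others of the list stood less far above it, with Gzmb at 0.272 against 0.130 TPM, Cd8a at 0.786 against 0.540 TPM and Cd3d at 3.59 against 2.64 TPM. Cd4 and Prf1 lay below it, at 0.186 against 0.223 TPM and 0.0495 against 0.0947 TPM, and Klrb1c and Ncr1 were at 0. The T and NK cell markers summed to 7.45 TPM, against 3.13 and 6.70 TPM in the other KOB libraries and up to 8.98 TPM in KOA. Ifng had 0.267 against 0.0793 TPM. The part of these cells was not tested. Without this library the difference between lines labelled KO and WT in 6419c5 ran from 1.38 (Irgm1) to 3.82 (Gbp2), with a median of 2.78.

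**Figure D4:**
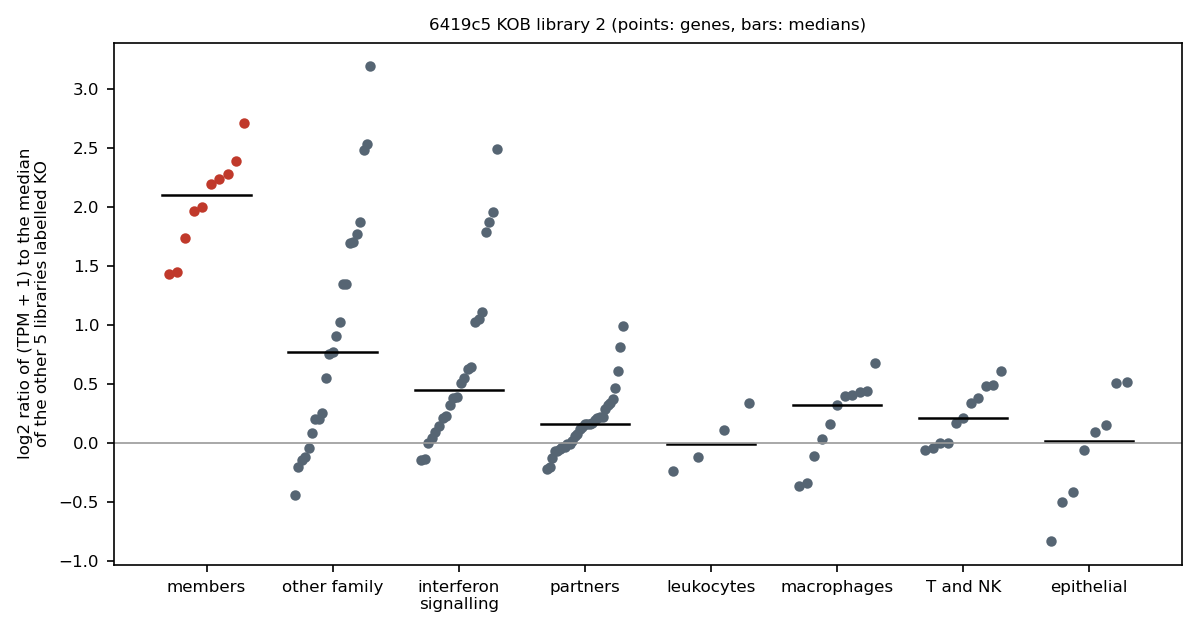
Library 2 of 6419c5 KOB against the median of the other 5 libraries labelled KO of 6419c5, as log2 of the ratio of (TPM + 1), for each gene (points) of the 10 members and of 7 further gene lists, with the median of each list (bar). The members lie between 1.44 and 2.71, and the medians of the leukocyte, macrophage and epithelial lists lie within 0.5 of 0.

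The comparison of the WT lines of the clones leaves out the KO libraries, though the WT values entered the contrast used to choose the genes. Irgm1 averaged 12.1 ± 1.58 TPM in WT of 6694c2 (SD, n = 4) and 22.7 ± 2.70 TPM in WT of 6419c5 (SD, n = 3), without overlap. Several marker sums also separated these lines without overlap, at 169 to 260.0 TPM in 6694c2 and 732 to 1061 TPM in 6419c5 for fibroblasts, 1.79 to 4.82 TPM in 6694c2 and 6.16 to 9.05 TPM in 6419c5 for endothelium, and 3.84 to 4.61 TPM in 6694c2 and 4.86 to 9.77 TPM in 6419c5 for dendritic cells. T and NK cell sums were 3.17 to 3.78 TPM in 6694c2 and 3.91 to 4.39 TPM in 6419c5, also without overlap. Epithelial sums went the other way, at 7398 to 8946 TPM in 6694c2 and 5607 to 7262 TPM in 6419c5, again without overlap. Of 4 general leukocyte markers 3 were lower in 6694c2, with a median difference of -1.68. The 11 macrophage markers had a median of -1.60 with 1 called lower. The part of these cells was not tested. The Irgm1 difference of -0.85 ± 0.27 passed (limma adjusted p = 0.0114). It passed in all 28 alternatives, with values between -0.95 and -0.76 and limma adjusted p between 6.94e-05 and 0.0442. It was the only 1 of the 10 to pass, where 53.5% of all genes passed and 32% were lower in 6694c2. Gbp6 differed by -0.70 ± 0.38 (limma adjusted p = 0.131), and passed without library 2 of 6419c5 KOB (adjusted p = 0.0149), where 53.1% of all genes passed. For the other 8 genes the difference lay between -0.36 and 0.37, with Gbp2 at 0.37 and an interval of -0.46 to 1.19.

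The KO effect was not shown to differ between the clones for any of the 10 genes. The genes were chosen for higher levels in KO in these same libraries. This comparison is not free of that choice, and its p-values are descriptive. The effect in 6694c2 less the effect in 6419c5 ran from -0.94 ± 0.48 for Gbp2 (limma adjusted p = 0.158) to 0.45 ± 0.32 for Irgm1 (limma adjusted p = 0.323), none passed the adjusted threshold, none had an unadjusted p under 0.05, and 28.6% of all genes passed. The intervals remained wide, from -1.95 to 0.07 for Gbp2 and from -0.23 to 1.13 for Irgm1. Both ends depended on KOB libraries of 6419c5. Without library 2 Irgm1 passed at 0.71 (limma adjusted p = 0.00618), where 27.3% of all genes passed. Without library 1 Gbp2 passed at -1.22 (limma adjusted p = 0.0277), where 27.4% did.

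In the order of mean levels over the 6 lines, the WT lines took the lowest places for all 10 genes, and the ranges of the lowest KO line and the higher WT line did not overlap. KOB of 6419c5 had the highest mean for all 10 genes, but its range overlapped the next line each time, and without its library 2 it had the highest mean for 2 genes, Gbp2 and Gbp3. Irgm1 was also the only gene whose 2 WT lines did not overlap each other. Among the other neighbours in the order, ranges overlapped for most genes. The exceptions were 6694c2 KOB over KOA for Gbp4 and Iigp1, 6694c2 KOB over 6419c5 KOA for Gbp5, 6694c2 KOA over 6419c5 KOA for Iigp1 and 6419c5 KOA over 6694c2 KOA for Irgm1.

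The 10 genes also moved together between libraries of 1 line. After each line's mean was taken away, Pearson's r of log2(TPM + 1) between pairs of the genes over 21 libraries had a median of 0.902, from 0.709 (Gbp7 with Irgm1) to 0.972 (Gbp3 with Gbp6). With library 2 of 6419c5 KOB dropped the median was 0.824 and the lowest value 0.510. The mean taken away from its line still included that library, so its effect was not fully removed. Over the 12 libraries of 6694c2 alone the median was 0.722, from 0.260 (Gbp7 with Igtp) to 0.930 (Gbp2 with Irgm2). Pairs drawn from all genes were not compared. These values are descriptions across libraries that share one table and its normalization, and they carry no test. Among the genes outside the set whose deviations were most like the mean of the 10 were Gm12250 (r = 0.972), Tgtp1 (0.949), Oasl2 (0.943) and Samhd1 (0.940). With library 2 of 6419c5 KOB dropped in that same way, Gm12250 stood at 0.945. Over all 21 libraries with line means kept, where libraries labelled KO and WT form separate levels, the values were 0.990 for Tgtp1, 0.990 for Tap2 and 0.987 for Tgtp2. Within 6694c2 the r to the mean of the 10 was 0.928 for Gm12250, 0.825 for Nlrc5 and 0.437 for Irf1.

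**Figure D5:**
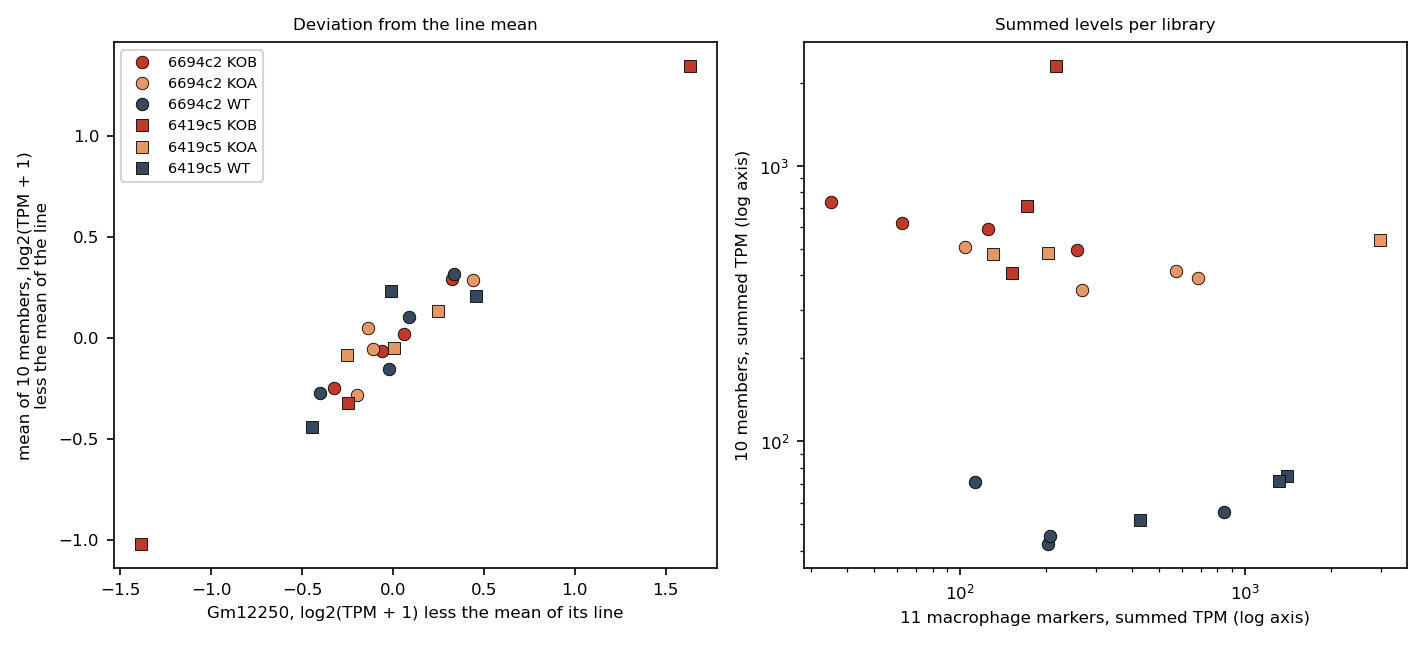
Left, the mean deviation of the 10 genes from their line mean in log2(TPM + 1) against that of Gm12250 in the 21 libraries; right, the summed TPM of the 10 genes against that of 11 macrophage markers, both axes logarithmic. On the left KOB libraries 2 and 1 of 6419c5 form the ends of the cloud, and on the right the sums of the 10 genes are 355 TPM or more in libraries labelled KO and 74.7 TPM or less in WT libraries, whose macrophage sums run from 113 to 1402 TPM.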

How the data were processed

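Gene-level TPM was deposited by the authors as 1 table of 24623 symbols and 21 libraries, made with Salmon against mm10 per the submitters' processing notes. The Salmon version, the annotation and strand handling are not given in the sources used here. Each library adds up to 1000000 TPM, and the depth per library is unknown, so precision rests on the spread between libraries. Columns were matched to groups by clone and line names.

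The analysis scale was log2(TPM + 1), so the pseudocount was 1. Models were fitted with limma 3.58.1 under R 4.3.3, with statmod 1.5.0 for the random effect. Sequence searches, summaries and figures used Python 3.11.15, pandas 2.3.3, numpy 2.4.6 and matplotlib 3.10.9. The 14337 genes that reached 1 TPM in 3 or more libraries were fitted together (lmFit, contrasts.fit, eBayes with trend), with 1 mean for each of the 6 lines. Tests were two-sided, adjusted by Benjamini-Hochberg over all of them, with a threshold of 0.05. The KO effect was the mean of KOB and KOA less WT. The fit was tested on simulated data.

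The members and gene lists were chosen with earlier results of these data known. All 10 members and any gene of the lists could be named, together with the genes most like the members' mean, of which 1 is not reported here. Alternatives covered the pseudocount, the filter, the scaling, the trend, a replicate block, lines as a random effect, each clone alone, and libraries left out. Sequences came from RefSeq tables on GRCm38.p6. Shared 31-base words were counted in GENCODE M21 transcripts.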

Additional observations from a re-analysis of the deposited data

Results flagged for a closer look

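In library 2 of 6419c5 KOB the highest of the 6 libraries labelled KO stood apart from the rest for all 10 genes, by a gap larger than Dixon's 95% critical value for 6 samples. The values there were 773 TPM for Gbp2, 187 TPM for Gbp3, 119.5 TPM for Gbp4, 69.7 TPM for Gbp5, 128.5 TPM for Gbp6, 70.9 TPM for Gbp7, 411 TPM for Iigp1, 175 TPM for Irgm1, 63.3 TPM for Irgm2 and 294 TPM for Igtp. The 10 flags come from 1 library and are not independent of each other. In library 1 of 6694c2 KOB, Gbp5 stood at 25.0 TPM, apart from the other 3 libraries of its line. Across 50 sets of libraries there were 11 flags. Chance flags about 1 set in 20 when sets are independent. These sets share libraries and hold correlated genes, so no excess is read from the count. The cause was not tested.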

How the results depend on the processing

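Under 31 alternative settings, 21 of them leaving out 1 library, neither called difference, Gbp5 for KOB against KOA in 6694c2 and Irgm1 for WT against WT, changed sign. Leaving out each library in turn gave 0 to 5 members called for KOB against KOA in 6694c2, 0 to 6 for KOB against KOA in 6419c5, 1 to 2 for WT against WT and 0 to 1 for the difference of KO effects. For KOB against KOA in 6694c2, where 1 was called, there were 0 with a pseudocount of 0.1, with no filter on low values, with eBayes without trend and without both libraries of high Mir6236, and 7 with the clone fitted alone. A pseudocount of 0.1 moved the KO effect of Gbp4 to 4.77 in 6694c2 and 5.14 in 6419c5, and that of Gbp5 to 3.999 and 3.78. The call of Gbp5 was lost without any 1 of the 4 WT libraries or the 4 KOB libraries of 6694c2, without KOA library 2, 3 or 4 of 6694c2, and without WT library 2 or KOA library 1 or 3 of 6419c5. The replicate block gave 2 members called (Gbp4 and Gbp5) and changed no other count. Libraries with the same number deviated together at over 0.1 in 6 of 21 pairs (r from -0.147 to 0.173). Pairs with different numbers were not compared, so whether libraries share more than a number was not tested. Depth is unknown, so values under 1 TPM, such as Gbp4 and Gbp5 in WT, have no counting limit of their own.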

Other observations

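Between the KO lines of 6694c2, where the 10 GTPases averaged higher in KOB, several of their partners differed in both directions. Aim2, a sensor of cytosolic DNA, averaged 6.21 TPM in KOB and 20.3 TPM in KOA, a difference of -1.49 ± 0.18 (limma adjusted p = 2.49e-06), and Sqstm1, an autophagy receptor, averaged 264 TPM in KOB and 478 TPM in KOA, a difference of -0.85 ± 0.08 (limma adjusted p = 1.14e-07). Casp4, the inflammatory caspase that senses lipopolysaccharide, averaged 22.2 TPM in KOB and 10.3 TPM in KOA, a difference of 1.06 ± 0.19 (limma adjusted p = 0.000152). Gm4951, an immunity-related GTPase gene, averaged 26.8 TPM in KOB and 9.95 TPM in KOA, a difference of 1.35 ± 0.24 (limma adjusted p = 0.000156). Of the 30 partners tested, 7 were higher and 10 lower in KOB, where 46.5% of all genes passed in either direction. Summed fibroblast, endothelial, dendritic and general leukocyte markers also separated these lines, all lower in KOB, and their part was not tested.

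In library 2 of 6419c5 KOB, the genes furthest above the median of the other 5 libraries labelled KO were mostly small RNA genes listed at 0 in that median. Hoxb6, a homeobox gene, had 45.8 TPM there against a median of 2.18 TPM. These genes were chosen after their values were seen.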
